A study of Mus musculus with 31 samples.

Results

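The genes described here encode the nuclear part of respiratory complexes II to V, the protein assemblies of the inner mitochondrial membrane, together with their assembly factors and the electron carrier cytochrome c. The rule reads symbols only. All symbols that start with Sdh followed by a, b, c or d, or with Uqcr, Uqcc, Cox4, Cox5, Cox6, Cox7, Cox8, Cox10 to Cox20, Atp5 or Atpaf were taken, with Cyc1 and Cycs. Of the 20544 symbols of the count table, 68 fulfilled this rule. They comprise 8 genes of complex II, 12 of complex III, 27 of complex IV, 19 of complex V, the gene of cytochrome c and 1 pseudogene, Cox7c-ps1.

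Values are counts from 31 single 2-cell embryos, 16 control- and 15 SER-generated, collected 32 h post-insemination (HPI). All embryos were labelled wild type and came from in vitro fertilization of CD1 oocytes (superovulated females aged 8 to 10 weeks) with C57BL/6J sperm (males aged 12 to 14 weeks), after 4 h of coculture. Sperm Energy Restriction and recovery (SER) means that sperm were held without nutrients until motility was lost, within 15 to 45 min, and then received glucose and pyruvate again, whereas control sperm stayed in complete medium, the caudae of a male being divided between the treatments. The comparison asks whether embryos from treated and untreated sperm differed in transcript levels after zygotic genome activation, and since the labels do not name the male, the dish or the batch of an embryo, p-values measure the spread between embryos only.

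Complex II (succinate dehydrogenase) passes electrons from succinate to ubiquinone, complex III (cytochrome bc1) passes them on to cytochrome c, and complex IV (cytochrome c oxidase) hands them to oxygen. Complexes III and IV pump protons while they work, and complex V (ATP synthase) uses the returning protons to make ATP. The mitochondria of a cleavage-stage embryo come almost entirely from the oocyte, and the embryo relies on pyruvate oxidation before it turns to glucose. The subunits encoded in the mitochondrial genome (mt-Cytb, mt-Co1, mt-Co2, mt-Co3, mt-Atp6 and mt-Atp8) had no row under these symbols in the count table and were not analysed. All 68 genes described are nuclear.

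Promoter sequences were looked at for motifs known from genes of the respiratory chain. RefSeq windows on GRCm38.p6, from 250 bases before to 50 bases after a transcript start, were matched by symbol for 53 of the 68 genes. The core site of NRF1, a regulator of nuclear genes for mitochondrial proteins, was searched as GCGCATGC and the core site of ETS factors, the family of GABP, as CCGGAAG, on both strands. The NRF1 core stood in the windows of 8 of the 53 genes (15.1%), among them Cycs, Sdhb and Cox6a1, against 3.05% of the windows of 27025 genes. For the ETS core these shares were 21 of 53 genes (39.6%) and 9.93%. By complex, the ETS core was found in 5 of 7 genes of complex II, 2 of 8 of complex III, 8 of 20 of complex IV and 6 of 17 of complex V. A match is a string of letters and was not tested for binding. The windows of 3 genes of complex IV are shown because Cox8a had the highest level per kilobase of the list and because Cox6b1 and Cox6b2 are a ubiquitous and a testis isoform of the same subunit. Capitals mark the ETS core, read on either strand. They lie at chr19:7217567-7217866 for Cox8a (minus strand), chr7:30626065-30626364 for Cox6b1 (minus strand) and chr7:4753045-4753344 for Cox6b2 (minus strand). The window of Cox8a held the ETS core 2 times, that of Cox6b1 1 time and that of Cox6b2 0 times, and none of the 3 held the NRF1 core.
Cox8a: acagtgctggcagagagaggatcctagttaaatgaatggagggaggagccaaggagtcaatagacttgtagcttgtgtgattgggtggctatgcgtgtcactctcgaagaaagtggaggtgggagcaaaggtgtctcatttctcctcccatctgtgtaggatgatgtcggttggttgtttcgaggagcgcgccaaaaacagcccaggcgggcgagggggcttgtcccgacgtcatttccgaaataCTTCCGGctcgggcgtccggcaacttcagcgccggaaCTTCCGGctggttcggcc
Cox6b1: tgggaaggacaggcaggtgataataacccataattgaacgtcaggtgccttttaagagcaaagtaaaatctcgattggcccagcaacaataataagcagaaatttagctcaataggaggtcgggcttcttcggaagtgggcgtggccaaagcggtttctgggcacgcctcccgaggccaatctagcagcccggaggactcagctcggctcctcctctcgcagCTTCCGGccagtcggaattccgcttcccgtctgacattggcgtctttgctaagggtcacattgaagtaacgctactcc
Cox6b2: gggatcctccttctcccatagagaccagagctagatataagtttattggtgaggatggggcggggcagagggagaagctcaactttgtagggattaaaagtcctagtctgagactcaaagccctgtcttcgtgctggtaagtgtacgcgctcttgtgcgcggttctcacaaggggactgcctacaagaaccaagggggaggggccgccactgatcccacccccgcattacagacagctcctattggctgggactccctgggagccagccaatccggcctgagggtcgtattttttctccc

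Library totals ran from 532945 to 3088396 counts, with medians of 955806.5 in control- and 1375557 in SER-generated embryos. At least 1 count was found for 10455 to 13220 genes per embryo. Markers of the oocyte and cleavage embryo were present, 14 of 14 listed genes in the table having passed the filter on low counts, as were 13 of 15 genes of zygotic activation at the 2-cell stage. Of 16 genes of cumulus and granulosa cells, 1 passed it (Amhr2), and of 15 genes of sperm and spermatids 2 did (Odf2 and Ldhc), with Acr at 0 in all embryos. The protamine gene Prm2 had a count in 22 embryos (medians of 2.58 and 1.56 CPM in control- and SER-generated embryos, up to 19.6), and Prm1 and Tnp1 in 4 and 6.

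Levels of the 68 genes, taken as counts scaled to a library total of 1000000 (CPM) per kilobase of transcript and averaged over the 31 embryos, were led by small subunits of complex IV. Cox8a had the highest level, 820 ± 739 CPM per kb (SD, n = 31), followed by Cox6b2 (606 ± 940), Cox6a1 (463 ± 229), the catalytic β subunit of ATP synthase Atp5b (380 ± 65.3) and Cox6b1 (351 ± 270), neighbours that did not differ beyond their spread. This order depended on division by transcript length. By CPM alone, Atp5b (medians of 756 in control- and 674 in SER-generated embryos) and the assembly factor Cox10 (451 and 356) stood above Cox8a (381 and 348). The second place of Cox6b2 per kilobase rested on control replicates 1 and 3. Without them its mean was 373 CPM per kb, and both by this mean and by the median over all embryos (371) it ranked 4, after Cox8a, Cox6a1 and Atp5b. Cox7a2 (235), Cox4i1 (220) and Uqcc3 (213), an assembly factor of complex III, came next and did not differ beyond the spread between embryos, with SDs per embryo of 267, 141 and 166. In contrast, the genes of complex II stood low, the highest of them being the flavoprotein subunit Sdha at 38.9 and the iron-sulfur subunit Sdhb at 20.1 CPM per kb. The catalytic core of ATP synthase had the smallest spread, Atp5b lying between 458 and 961 CPM in all 31 embryos.

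Together the 68 genes took 0.337 to 1.35% of the counts of a control-generated embryo (median 0.468%, n = 16) and 0.315 to 0.511% of those of a SER-generated embryo (median 0.441%, n = 15). Control replicates 3 and 1 stood apart with 1.35% and 1.09%, and the next highest control value was 0.639%. In complex IV, their shares were 0.865% and 0.673%, against at most 0.317% in the other 14 control-generated and 0.233% in the SER-generated embryos. In complex II, replicate 1 had the lowest share of all 31 embryos, 0.00645%. Both embryos were the highest pair for 16 of the 49 genes tested (32.7%), and for 350 of all 8571 genes tested (4.08%). Since they were singled out by their shares of these same genes, the larger percentage is no independent result. At the other end, control replicate 4 and SER replicate 15 had the lowest mean log2 CPM over the 49 genes, 3.99 and 3.94, and SER replicate 15 had the highest share of complex II, 0.0601%. Medians by complex and most fold changes are therefore given with and without control replicates 1 and 3.

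**Figure D1:**
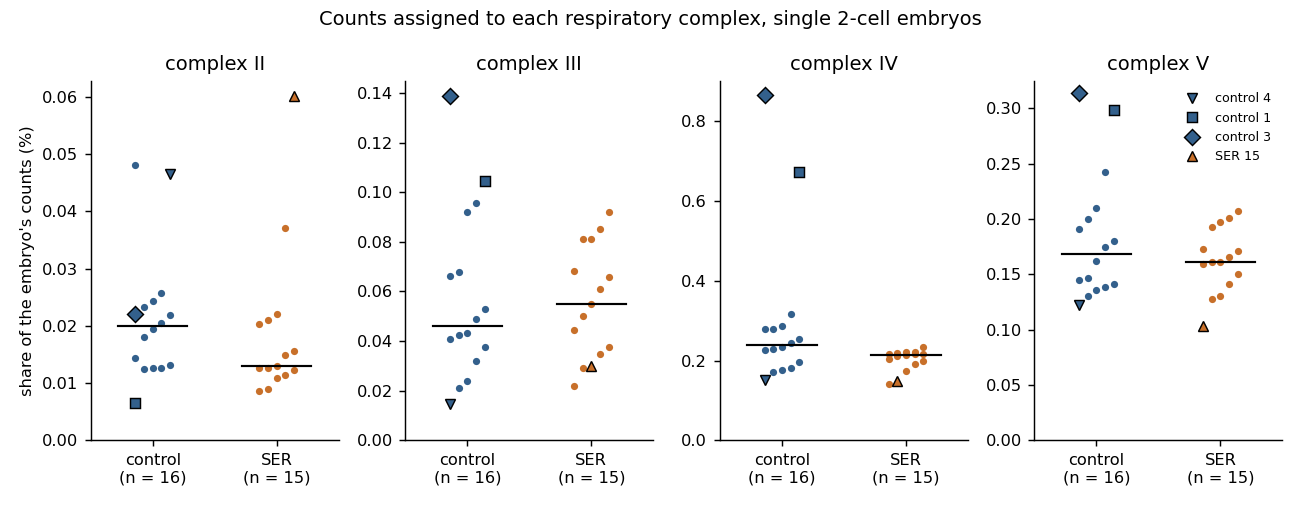
Share of each embryo's counts assigned to complexes II, III, IV and V (y axis in percent, from 0), with a point per embryo, 16 control- and 15 SER-generated, and lines at the group medians. Control 1 and 3 lie far above all other embryos in complex IV (0.673% and 0.865%), and SER 15 is highest in complex II (0.0601%).

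Sums of marker genes were compared over these 4 embryos. In the summed CPM of the 15 zygotic activation genes, control replicates 3 and 1 ranked 1 and 2 of 31 (1691 and 1589 CPM, control median 517, SER median 726). SER replicate 15 and control replicate 4 ranked 30 and 31 (141 and 45.3 CPM). Most of the sums of control replicates 3 and 1 came from Tcstv3 (634 and 346 CPM), Tcstv1 (508 and 246 CPM) and Zfp352 (180 and 559 CPM). In contrast, each Zscan4 gene was highest in SER replicate 13, with 389 CPM of Zscan4d against 124 and 79.8 CPM in control replicates 3 and 1. In the sum of the 14 oocyte genes, control replicate 4 ranked 1 (82416 CPM, control median 22599, range in SER 8253 to 42093), while SER replicate 15 ranked 9 (26220 CPM) and control replicates 1 and 3 had 17298 and 19158 CPM. Most of the sum of control replicate 4 was Zbed3 (68499 CPM, control median 15185), which was 3142 and 3078 CPM in control replicates 1 and 3. Without Zbed3, control replicate 4 ranked 3 (13917 CPM, control median 6409), below control replicates 3 and 1. Control replicates 1 and 3 were the highest pair for Dppa3 (8595 and 6503 CPM) and Oosp1 (2559 and 3983 CPM). For Gdf9 they lay below the control median (241 and 242 CPM, median 366). The sum of the 16 cumulus and granulosa genes was 51.0 and 75.1 CPM in control replicates 1 and 3, below the medians of 139 in control- and 141 in SER-generated embryos, whose ranges were 27.2 to 1692 and 21.0 to 307 CPM. The sum of the 15 sperm genes was 102 and 278 CPM in the same libraries, within 87.1 to 373 CPM over all embryos. The part of developmental stage in the results was not tested, and less RNA of a gene per embryo and a different makeup of the library cannot be told apart in these shares.

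Fold changes are given for SER- over control-generated embryos, from the quasi-likelihood test of edgeR on all 8571 genes left by its filter on low counts, of which 49 belong to the list. With Benjamini-Hochberg adjustment, 0 of the 49 genes passed an adjusted p of 0.1, and neither did any of the 8571 (0%). The smallest adjusted p among the 49 was 0.242, for Cox6c. Estimates were lower in SER-generated embryos for 39 of 49 genes and higher for 10, with a median log2 fold change of -0.45, where 47.3% of all tested genes were lower and their median was 0.02. An unadjusted p under 0.05 was found for 5 of the 49 genes, Cox6c, Cox6b2, Cox7a2, Cox8a and Cycs, all lower, and for 304 of all tested genes in this direction (3.55%). In the higher direction these numbers were 0 of 49 and 187 (2.18%).

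This shift rested on control replicates 1 and 3. Without both, a choice made after the data were seen, the median over the 49 genes was -0.01, 26 were lower and 23 higher, and 0 of 8640 tested genes had an adjusted p under 0.1 (0%). Unadjusted p under 0.05 with a lower estimate was then found for 2 of the 49 genes, Cox6c and Cox18 (2.45% of all tested genes). Leaving out control replicate 1 alone gave a median of -0.28 and control replicate 3 alone -0.21. Without control replicate 4 and SER replicate 15 as well, the median over the 48 genes then tested was -0.03.

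**Figure D2:**
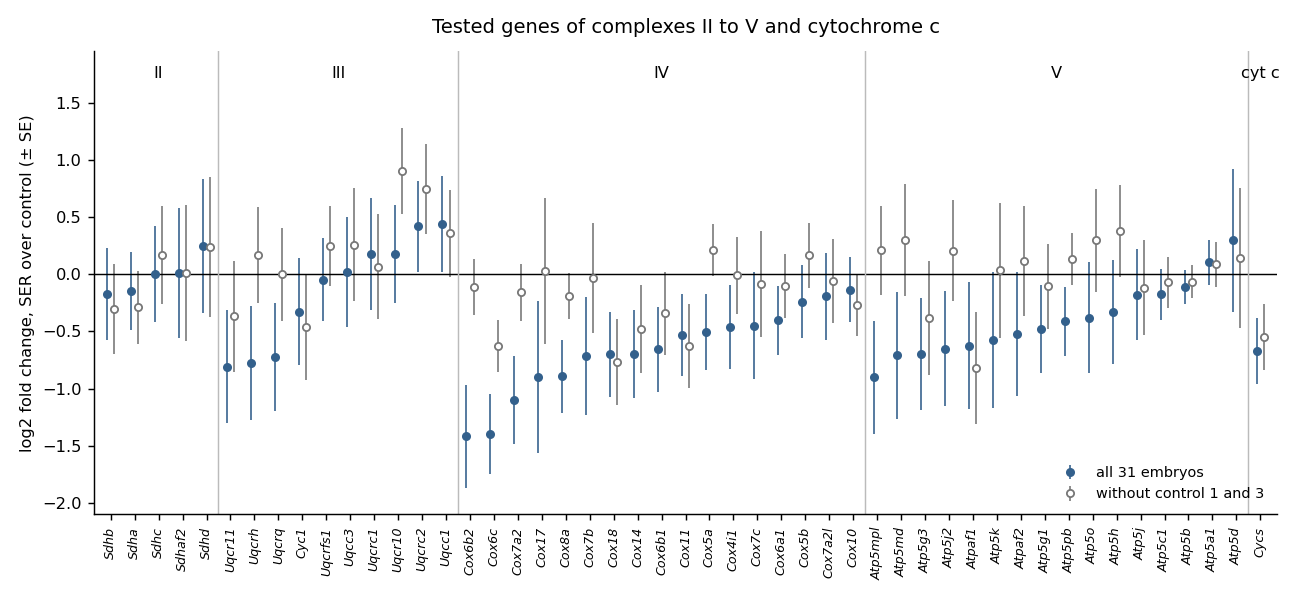
Log2 fold change of SER- over control-generated embryos (y axis, bars are the standard error of edgeR's estimate) of the 49 tested genes, sorted within complexes II, III, IV, V and cytochrome c. With all 31 embryos (filled) 17 of 17 genes of complex IV lie below 0, and without control 1 and 3 (open) 14 of 17 do. They lie closer to 0 for 14 of 17 genes and farther for Cox10, Cox11 and Cox18, with 0 genes past the adjusted threshold in either.

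In complex IV, cytochrome c oxidase, 17 of 27 genes were tested. All 17 had lower estimates in SER-generated embryos, from -1.42 to -0.14 with a median of -0.66, 0 passed the adjusted threshold and 4 had an unadjusted p under 0.05. Without control replicates 1 and 3, 14 of 17 were lower and the median was -0.11. The tested subunits, the assembly factors, the supercomplex factor and the testis isoform Cox6b2 are described in turn.

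Cox6c encodes a small structural subunit of complex IV and lies on chromosome 15 from 35925886 to 35938246 (minus strand, GENCODE on GRCm38). Its level was 48.3 to 478 CPM (median 84.4) in control- and 20.2 to 97.2 CPM (median 53.0) in SER-generated embryos. The groups overlapped, but 13 of 15 SER-generated embryos lay below the control median. This gave a log2 fold change of -1.40 (SE 0.35, edgeR p = 0.000282, Benjamini-Hochberg adjusted p = 0.242). Control replicates 1 and 3 held 478 and 411 CPM, and the next control embryo 127 CPM. Without them the estimate was -0.63 (SE 0.23, adjusted p = 0.838 by edgeR). Cox6c was called by 5 of the other tests tried on all 31 embryos, more than any other gene of the list. The annotation holds 2 other loci with a near-identical copy of its coding sequence, so the assignment of its reads is uncertain.

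Cox7a2 and Cox8a encode the widely expressed forms of further small subunits. Cox7a2 had 49.8 to 799 CPM (median 109) in control- and 22.6 to 195 CPM (median 111) in SER-generated embryos. The medians were nearly equal and 6 of 15 SER-generated embryos lay below the control median, and control replicates 3 and 1 held 799 and 787 CPM. Its log2 fold change was -1.10 (SE 0.39, edgeR adjusted p = 0.607) with and -0.16 (SE 0.25) without them. Cox8a had 267 to 2328 CPM (median 381) in control- and 97.0 to 476 CPM (median 348) in SER-generated embryos. Its highest values were again those of control replicates 3 and 1, 2328 and 1372 CPM, and its lowest was that of SER replicate 15. For Cox8a the log2 fold change was -0.89 (SE 0.32, edgeR adjusted p = 0.640) with and -0.19 (SE 0.20) without both.

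Cox6b2 encodes the testis form of a subunit at the interface of the dimer of complex IV. It had 83.0 to 2092 CPM (median 178) in control- and 30.4 to 310 CPM (median 140) in SER-generated embryos, with 9 of 15 SER-generated embryos below the control median. Control replicates 3 and 1 held 2092 and 1377 CPM, and the next control embryo 266 CPM. The log2 fold change of -1.42 (SE 0.45, edgeR adjusted p = 0.451) became -0.11 (SE 0.24) without them. The ubiquitous form Cox6b1 had 12.1 to 545 CPM (median 135) in control- and 37.4 to 266 CPM (median 104) in SER-generated embryos, and its highest value was that of control replicate 12. Its log2 fold change was -0.66 (SE 0.37, edgeR adjusted p = 0.869), and -0.34 (SE 0.36) without control replicates 1 and 3.

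**Figure D3:**
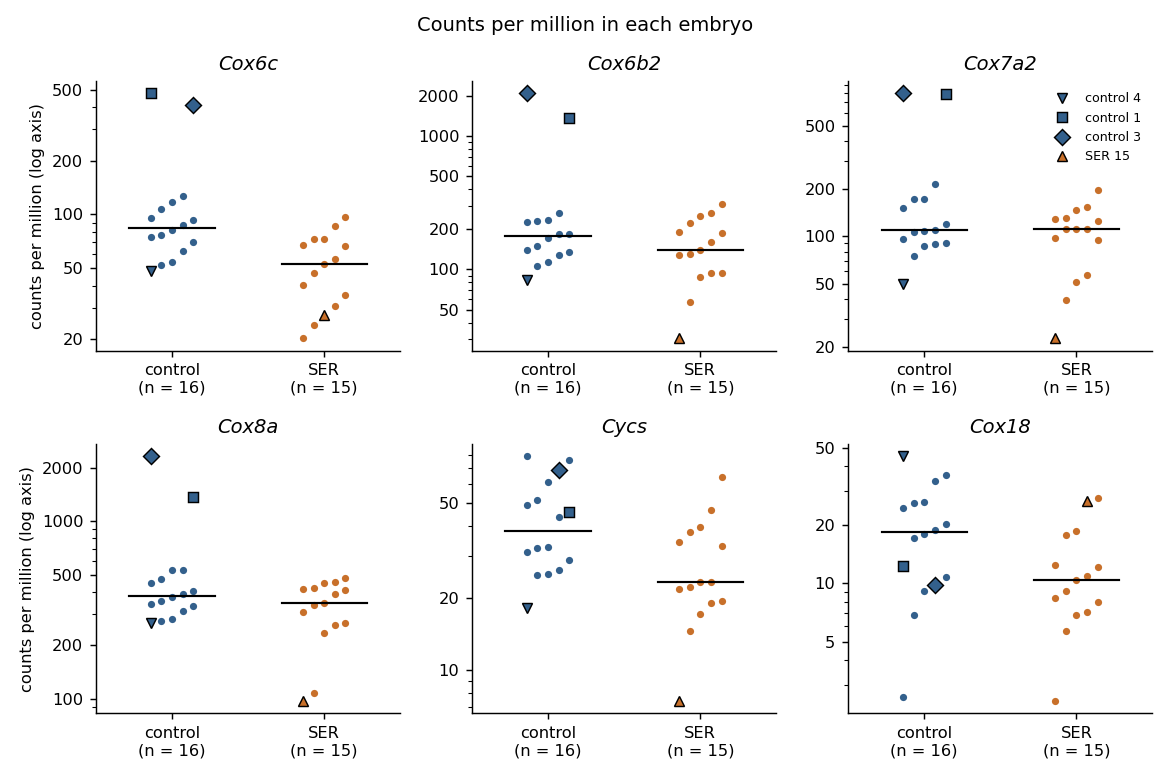
CPM (log axis) of Cox6c, Cox6b2, Cox7a2, Cox8a, Cycs and Cox18 in each embryo, 16 control- and 15 SER-generated, with lines at the group medians. Control 1 and 3 are the highest embryos for the 4 subunits of complex IV, but not for Cycs or Cox18, for which control 4 is the lowest and the highest control embryo.

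Among the other subunits of complex IV the estimates were smaller than 2 standard errors. Cox6a1, the liver-type form of subunit VIa, had 49.8 to 600 CPM (median 280) in control- and 26.1 to 379 CPM (median 256) in SER-generated embryos, and Cox4i1, the regulatory subunit IV, had 9.05 to 484 CPM (median 150) and 8.18 to 257 CPM (median 167). Their log2 fold changes were -0.40 (SE 0.30) and -0.46 (SE 0.37), and -0.11 and -0.0094 without control replicates 1 and 3. Cox5a, Cox5b, Cox7b and Cox7c lay between -0.71 and -0.24, and between -0.085 and 0.21 without both.

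Of the 5 tested assembly factors of complex IV, Cox10, Cox11 and Cox18 had control replicates 1 and 3 below the control median, while Cox17 had them as its highest pair. Cox18 encodes the inner membrane insertase that places the tail of subunit II and lies on chromosome 5 from 90214724 to 90224001 (minus strand). It had 2.60 to 45.3 CPM (median 18.4) in control- and 2.46 to 27.3 CPM (median 10.4) in SER-generated embryos, with 12 of 15 SER-generated embryos below the control median. Its highest control value was that of control replicate 4, and control replicates 1 and 3 held 12.3 and 9.75 CPM. The estimate for Cox18 was -0.70 (SE 0.37, edgeR adjusted p = 0.869), and -0.77 (SE 0.38, adjusted p = 0.911) without control replicates 1 and 3. Cox11, which delivers copper to the active site, had 8.94 to 165 CPM (median 62.8) in control- and 6.77 to 72.7 CPM (median 39.5) in SER-generated embryos, 12 of 15 being below the control median (log2 fold change -0.53, SE 0.36, and -0.63 without control replicates 1 and 3). Its exons overlap another gene in part. Cox14, a small factor for the translation of subunit I, had its highest values in control replicates 15 (219 CPM) and 1 (195 CPM), and log2 fold changes of -0.70 (SE 0.38) with and -0.48 without control replicates 1 and 3. Cox17, a copper chaperone, had 0 to 69.2 CPM (median 9.16) in control- and 0 to 36.6 CPM (median 10.3) in SER-generated embryos, control replicates 3 and 1 holding 69.2 and 62.0 CPM. Its estimate of -0.90 (SE 0.67), the lowest of the 5, became 0.028 (SE 0.64) without them. Cox10, which makes heme O, the precursor of the heme of the active site, had the highest level of these factors, 89.0 to 1010 CPM (median 451) in control- and 196 to 944 CPM (median 356) in SER-generated embryos, and a log2 fold change of -0.14 (SE 0.28), which was -0.27 without control replicates 1 and 3. Cox7a2l, a factor for the joining of complexes III and IV, had a log2 fold change of -0.19 (SE 0.38), which moved to -0.60 without SER replicate 15, its highest embryo with 86.5 CPM, and to -0.014 without control replicate 3.

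In complex V, ATP synthase, 16 of 19 genes were tested. Estimates were lower for 14 and higher for 2 (median -0.45, from -0.90 to 0.30), and 0 had an unadjusted p under 0.05. Without control replicates 1 and 3, 6 of 16 were lower and the median was 0.10. All 8 tested stalk or membrane genes were lower (median -0.49) and 1 of 8 was lower without control replicates 1 and 3 (median 0.21), whereas the 4 tested head genes were divided 2 and 2 in both cases (medians of -0.0040 and 0.011). The difference between both sets was not tested.

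Atp5b, the catalytic β subunit, had 458 to 961 CPM (median 756) in control- and 538 to 894 CPM (median 674) in SER-generated embryos. Its log2 fold change was -0.11, with an SE of 0.15, the smallest SE among the 49 genes. Atp5a1, the α subunit, had 92.6 to 307 CPM (median 183) in control- and 84.3 to 350 CPM (median 192) in SER-generated embryos (log2 fold change 0.10, SE 0.19). Atp5c1, the γ subunit of the rotor, gave -0.18 (SE 0.22). Control replicates 1 and 3, with 675 and 858 CPM of Atp5b, lay within the range of the other embryos for this gene.

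Atp5mpl, a small membrane subunit, had 3.75 to 229 CPM (median 29.1) in control- and 5.08 to 53.7 CPM (median 27.1) in SER-generated embryos. Its highest values were 229 CPM in control replicate 1 and 168 CPM in control replicate 3, and the next was 52.8 CPM. The log2 fold change was -0.90 (SE 0.49, edgeR adjusted p = 0.869), and 0.21 without both. Atp5pb, the b subunit of the stator, had 56.8 to 440 CPM (median 116) and 33.1 to 235 CPM (median 110), with a log2 fold change of -0.41 (SE 0.30), and 0.13 without both. Atp5j2 and Atp5md, further membrane subunits, had estimates of -0.65 and -0.71 with and of 0.20 and 0.30 without both. The exons of Atp5pb overlap another gene in part.

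The c subunit, of which a ring turns in the membrane, is encoded by 3 genes that give the same mature protein. Atp5g1 had 3.02 to 510 CPM (median 118) in control- and 7.01 to 250 CPM (median 133) in SER-generated embryos. The embryo with 3.02 CPM was control replicate 4 and that with 7.01 CPM was SER replicate 15, while control replicate 1 was highest. Its log2 fold change was -0.48 (SE 0.39), and -0.11 without control replicates 1 and 3. Atp5g3 had 1.88 to 92.1 CPM (median 19.0) and 0 to 60.7 CPM (median 12.1), with a log2 fold change of -0.70 (SE 0.49), and -0.38 without both. The assembly factors Atpaf1 and Atpaf2, chaperones of the β and α subunits, had log2 fold changes of -0.62 (SE 0.55) and -0.52 (SE 0.54). The sign of Atpaf2 rested on control replicate 3, which held 131 CPM where the control median was 12.3, and its estimate without this embryo was 0.19. Atpaf1 was at -0.82 and Atpaf2 at 0.11 without control replicates 1 and 3.

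In complex III, cytochrome bc1, 10 of 12 genes were tested, with 5 lower and 5 higher estimates, a median of -0.01 and 0 with an unadjusted p under 0.05. In the fit without control replicates 1 and 3, 3 of 10 were lower and the median was 0.21. Uqcr11, Uqcrh and Uqcrq, small subunits of the complex, had the lowest estimates, -0.81 (SE 0.49), -0.78 (SE 0.50) and -0.72 (SE 0.47), and -0.37, 0.17 and -0.00062 without control replicates 1 and 3. Uqcrh held 309 CPM in control replicate 3, where no other embryo exceeded 78.3 CPM, and its estimate without this embryo alone was -0.015. Uqcrq had 1.51 to 254 CPM (median 46.7) in control- and 0.779 to 80.0 CPM (median 52.7) in SER-generated embryos. Its highest values were those of control replicates 1 and 3, 254 and 224 CPM, and its lowest were those of control replicate 4 and SER replicate 15. Uqcr10 had 2.95 to 135 CPM (median 23.6) in control- and 7.88 to 131 CPM (median 51.2) in SER-generated embryos, of which 4 of 15 lay below the control median. Its log2 fold change was 0.18 (SE 0.43, edgeR adjusted p = 0.981), and 0.91 (SE 0.38, edgeR p = 0.0216, adjusted p = 0.90) without control replicates 1 and 3. These held the highest control values of Uqcr10, 135 and 128 CPM (next 59.1 CPM), so leaving them out raised the estimate. Without SER replicate 5, which held 131 CPM, the estimate was -0.041. The assembly factors Uqcc3, with 0 to 402 CPM (median 134) and 10.5 to 412 CPM (median 173), and Uqcc1 gave 0.02 (SE 0.48) and 0.44 (SE 0.42).

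In complex II, succinate dehydrogenase, 5 of 8 genes were tested, 2 with lower and 3 with higher estimates (median 0.0046, from -0.17 to 0.25), and the median was 0.0070 without control replicates 1 and 3. Sdha, the flavoprotein subunit, had 16.6 to 329 CPM (median 113) in control- and 33.4 to 317 CPM (median 69.2) in SER-generated embryos. Compared with Cox8a, high and low changed places for some embryos. Sdha held 329 CPM in control replicate 4 and 317 CPM in SER replicate 15, and 16.6 and 36.1 CPM in control replicates 1 and 3. This did not hold for all embryos. SER replicate 8 had the second highest Sdha (224 CPM) and the highest Cox8a (476 CPM) of the SER-generated embryos. The log2 fold change was -0.15 (SE 0.34, edgeR adjusted p = 0.981), -0.29 without control replicates 1 and 3 and 0.069 without control replicate 4. Sdhb had 4.30 to 132 CPM (median 14.8) and 5.10 to 41.1 CPM (median 21.3), with a log2 fold change of -0.17 (SE 0.40). Its highest value was that of control replicate 5 (next control value 47.0 CPM), and the estimate was 0.29 without this embryo. For Sdhb, 4 of 15 SER-generated embryos lay below the control median. Control replicate 5 also had the highest Cyp11a1, a granulosa gene (1423 CPM, control median 11.8). It was the highest embryo for Inhba (120 CPM), Inha (53.7 CPM), Star (21.5 CPM), Fshr and Vcan of the same list as well. The other genes of that list, Amhr2 among them, were highest in other embryos. A link between these values was not tested. Sdhd, a membrane anchor, and Sdhaf2, the factor that attaches FAD to Sdha, gave 0.25 (SE 0.58) and 0.01 (SE 0.57). Without SER replicate 15, which held the highest value of Sdhaf2, 127 CPM, its estimate was -0.80.

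Cycs encodes the somatic cytochrome c, which carries electrons from complex III to IV and also takes part in apoptosis. It lies on chromosome 6 from 50562563 to 50566538 (minus strand). Its level was 18.1 to 78.9 CPM (median 38.3) in control- and 7.40 to 64.1 CPM (median 23.3) in SER-generated embryos, of which 12 of 15 lay below the control median. The log2 fold change was -0.67 (SE 0.29, edgeR adjusted p = 0.809), and -0.55 (SE 0.29, adjusted p = 0.911) without control replicates 1 and 3. Its coding sequence has near-identical copies at 4 other loci.

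The 19 genes that failed the filter on low counts were found in few embryos or at few counts. Subunit isoforms known from other tissues made up 6 of them. Cox7a1 (muscle and heart) had a count in 24 of 31 embryos, Cox4i2 (lung) in 21, Cox6a2 (muscle and heart) in 17, Cox7b2 in 9, Cox8c (testis) in 3 and Cox8b (muscle and heart) in 0. For Cox8b, as for the pseudogene Cox7c-ps1, 0 counts among 41350577 in all embryos allow up to 0.0726 CPM over all of them, and up to 5.63 CPM in the shallowest embryo, for counting error alone. Among assembly factors, Sdhaf1 had a count in 26 embryos, Sdhaf3 in 13, Sdhaf4 in 28, Uqcc2 in 27, Cox15 in 20, Cox16 in 25, Cox19 in 16 and Cox20 in 5. Among subunits, Uqcrb had a count in 18, Atp5e in 28, Atp5g2 in 25 and Atp5l in 29 embryos. Sdhaf4 reached 102 CPM in control replicate 3, and its group medians were 7.87 and 3.91 CPM in control- and SER-generated embryos. No fold change is given for these genes.

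Isoforms of the same subunit, and the chaperones Atpaf1 and Atpaf2, were compared within each embryo as the difference of log2(CPM per kb + 1). A 2-sided permutation test (sign flips, 100000 resamples) over all 31 embryos was used. Benjamini-Hochberg adjustment was made over the 8 pairs in which both genes had a count in at least 16 embryos. The widely expressed form had the higher level for subunits IV, VIa and VIIa. Cox4i1 exceeded Cox4i2 by 5.75 ± 1.70 (SD, n = 31) on the log2 scale, Cox6a1 exceeded Cox6a2 by 7.28 ± 2.15 and Cox7a2 exceeded Cox7a1 by 4.32 ± 1.71. Each of these differences held in 31 of 31 embryos (permutation test, adjusted p = 1.6e-05, resting on the smallest p these resamples can give, 1e-05). The c subunit genes were ordered as Atp5g1, Atp5g3 and Atp5g2. Atp5g1 exceeded Atp5g3 by 1.27 ± 1.55 (higher in 26 of 31 embryos, permutation test, adjusted p = 0.00016) and Atp5g2 by 3.44 ± 2.17 (29 of 31, adjusted p = 1.6e-05 by permutation). Atp5g2 was lower than Atp5g3, by a mean of -2.17 ± 1.81, in all but 4 embryos (permutation test, adjusted p = 1.6e-05). Near-identical copies of the coding sequence exist at 1 other locus for Atp5g1, at 2 for Atp5g2 and at 0 for Atp5g3. The study kept only uniquely mapping 5′ reads, so reads can be lost unequally between these genes. The part of such loss in their order was not tested.

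For subunit VIb, the widely expressed form was not the higher one in most embryos. The comparison gave a mean difference of Cox6b1 minus Cox6b2 of -0.57 ± 1.29 (SD, n = 31) and Cox6b2 higher in 19 of 31 embryos (permutation test, adjusted p = 0.0231). The adjusted p depended on control replicates 1 and 3 and on the transcript length taken for each gene. Without both embryos the difference was -0.46 ± 1.26 (n = 29, permutation test, adjusted p = 0.0672). Without division by length it was -0.41 (permutation test, adjusted p = 0.0916). Both values pass an adjusted p of 0.1 but not 0.05. The difference passed neither with the shortest coding transcript (-0.27, permutation test, adjusted p = 0.282). With the union of all exons the sign changed (0.23, permutation test, adjusted p = 0.328). Both genes had a count in all 31 embryos. The promoter window of Cox6b2, printed above, holds no ETS core, unlike those of Cox8a and Cox6b1. Lack of this core was not particular to Cox6b2, since 8 of 20 genes of complex IV with a window held it. The difference of the chaperones Atpaf1 and Atpaf2 was -0.47 ± 1.79 and did not pass the test (permutation test, adjusted p = 0.158). The pairs Cox7b with Cox7b2, Cox8a with Cox8b, Cox8a with Cox8c and Cycs with the testis form Cyct, which had a count in 8 embryos, were not tested.

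**Figure D4:**
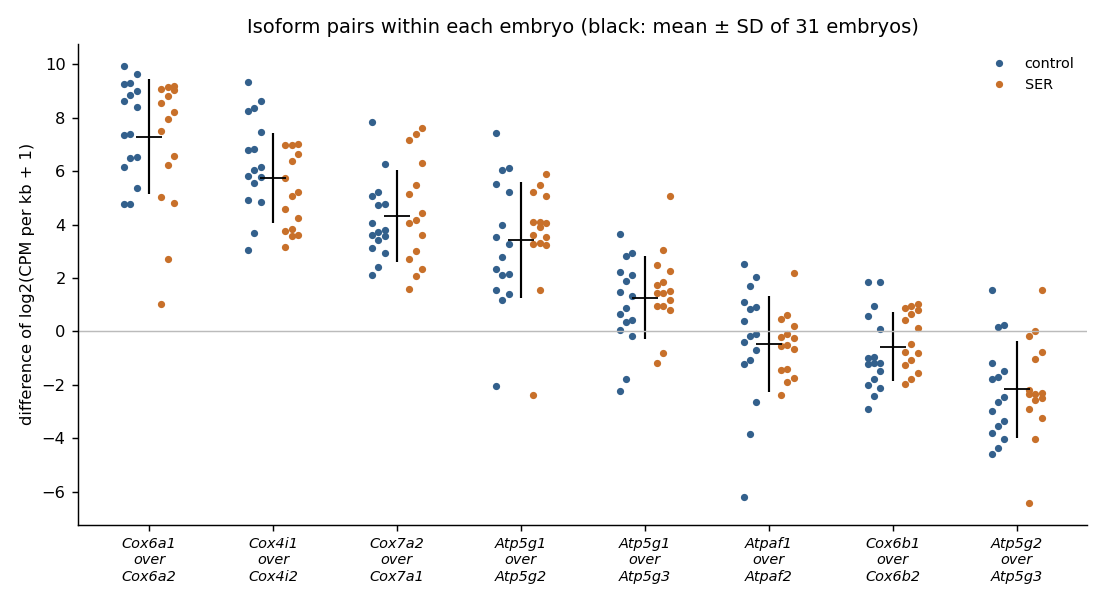
Difference of log2(CPM per kb + 1) between both genes of 8 pairs, of isoforms or of the chaperones Atpaf1 and Atpaf2 (y axis), with a point per embryo, 16 control- and 15 SER-generated, and black bars for the mean ± SD of all 31. The pairs of subunits VIa, IV and VIIa lie above 0 in 31 of 31 embryos, and Cox6b1 over Cox6b2 is spread around a mean of -0.57.

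Transcript length moved with these results. The tested genes of the list had a median length of 931 bases, against 2784 bases over all tested genes with a length. In the shortest quintile of all tested genes, which held 34 of the 49, the median log2 fold change over all genes was -0.20 and that over the 34 was -0.52. In the longest quintile the median over all genes was 0.12. Without control replicates 1 and 3 the shortest quintile had a median of -0.01. Per embryo, the slope of the log2 CPM, relative to the mean over all embryos, on log2 length was -0.62 in control replicate 3 and -0.48 in control replicate 1, and it was 0.26 in control replicate 4 and 0.17 in SER replicate 15, the highest value of each group. All other embryos lay between -0.22 and 0.16. After a smooth trend on length was removed from each embryo, the median over the 49 genes was -0.01, with 25 lower and 24 higher, and 0 genes passed the adjusted threshold. Cox6c was then at -0.70 (SE 0.24) and Cycs, whose transcript is 3123 bases long, at -0.81 (SE 0.31), neither past the adjusted threshold in edgeR (adjusted p = 0.958 and 0.995).

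**Figure D5:**
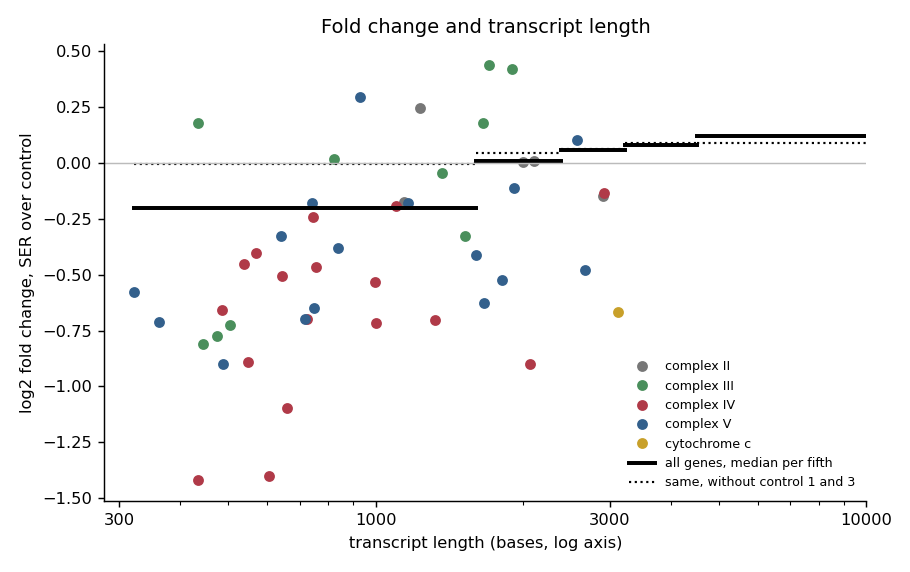
Log2 fold change of SER- over control-generated embryos (y axis) against transcript length in bases (log axis), with a point for each of the 49 tested genes, coloured by complex. Lines are the medians of all tested genes in quintiles of length with all embryos (solid, -0.20 in the shortest quintile) and without control 1 and 3 (dotted, -0.01), the last quintile being drawn to the edge of the plot.

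Other tests on the same counts called few of the 49 genes at an adjusted p of 0.1, and not the same ones. DESeq2 called Cox6c (1 of 49, against 0.572% of all tested genes), with a log2 fold change of -1.43 and an adjusted p of 0.0298, and the adjusted p of Cox6c ran from 0.00639 with ComBat-seq to 0.999 with the replicate number as a block. edgeR without the filter called Cox6c and Cox6b2 (2 of 66, against 2.83%). When 3 clusters of embryos, found from the counts because the batches are not labelled, entered as a term, edgeR called Cox6c (1 of 49, against 0.478%), DESeq2 called Cox6c, Cox7a2 and Cox8a (3 of 49, against 2.93%), and DESeq2 after ComBat-seq called Cox6c and Cox7a2 (2 of 47, against 2.04%). The clusters come from the same counts as the tests, and ComBat-seq was given the group before DESeq2 tested it. Control replicates 1 and 3 shared a cluster with most other embryos, so these fits do not set both apart. All calls named so far were lower in SER-generated embryos. limma voom with sample quality weights called none of them. It called Sdha lower (log2 fold change -0.75) and Uqcr10 higher (1.03), 2 of 49 against 9.89% of all tested genes, and gave a median of 0.15 over the 49 genes.

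The spread between embryos and the covariation of the genes are given as descriptions. The SD of the log2 CPM was larger in control- than in SER-generated embryos for 33 of the 49 genes (67.3%) and for 54.3% of all tested genes. Without control replicates 1 and 3, it was larger in control for 21 of 49 (42.9%) and for 38.8%. Over the 31 embryos, after the group means were removed, the median Spearman correlation was 0.18 over 1176 pairs of the 49 genes. It was 0.0024 over all pairs of tested genes. All genes of an embryo share its library, depth and length trend. Pairs of the list ranged from -0.85 to 0.84. The genes with the lowest median correlation with the others were Cox10 (-0.47), Sdha (-0.42), Atpaf1 (-0.37) and Cox18 (-0.31), with transcripts of 2915, 2900, 1663 and 1320 bases, above the median of the list. Of these 4 genes, 3 encode assembly factors and Sdha encodes a large catalytic subunit.

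Factors of complexes III to V that the symbol rule left out were counted as well. Counts were present for 28 such genes, and 22 were tested, 14 with lower and 8 with higher estimates (median -0.09), 0 past the adjusted threshold and 4 with an unadjusted p under 0.05, all lower (3.55% of all tested genes were). The 4, named after their values were seen, were Ndufa4, a subunit now assigned to complex IV, Atpif1, the inhibitor of ATP hydrolysis by complex V, Higd2a, an assembly factor of complex IV, and the protease Atp23, with log2 fold changes of -1.55, -0.92, -0.92 and -1.09. Leaving out control replicates 1 and 3 gave 0.16, -0.40, -0.15 and -0.97. The group medians of Ndufa4 were nearly equal (39.0 CPM for control and 39.6 for SER), and it held 871 and 457 CPM in control replicates 3 and 1. Without both, 13 of the 22 genes were lower and the median was -0.05. The summed CPM of the 28 genes was 2478 and 1583 in control replicates 3 and 1, the highest of all embryos, against medians of 700 in control- and 649 in SER-generated embryos.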

How the data were processed

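Single 2-cell embryos (16 control- and 15 SER-generated, grouped by their labels) were sequenced by Smart-seq3. According to the study's methods, the authors aligned (STAR) the 5′ reads, which carry a molecular identifier, and the internal reads, took out duplicates (UMI-tools for the former, Picard for the latter) and counted reads per gene (featureCounts), and the deposited counts are whole numbers per gene symbol without normalization. The build is mm10 per the labels, while annotation, strand setting and versions are not given in the sources used here. ComBat-seq and DESeq2 followed the counting in the study, and its batches are not given per embryo, so no batch term was used.

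The rule for members reads symbols only, but the members and all lists were chosen with earlier results of these data known. edgeR 4.0.16 (R 4.3.3) was fitted to the whole table with TMM, filterByExpr (minimum count 10, minimum total 15) and Benjamini-Hochberg adjustment, with the study's threshold of 0.1. The standard error is the size of the log2 fold change over the square root of F. CPM are counts over the library total. Depth was 532945 to 3088396 counts, which limits genes of few counts, and counting error is a lower bound because internal reads carry no identifier. Transcript length is the median over protein-coding transcripts of GENCODE vM21 (GRCm38), in which 68 of 68 members were found. A near-identical copy of the coding sequence (95% over at least 100 bases) exists for 25 members, and 18 overlap another gene on either strand. Values were given for up to 3 tested members of smallest p and the 2 of highest level in each complex and role, for isoform pairs, and for members called by any alternative. Values of Cox17, Cox5a, Cox5b and Cox7c were added after they were seen. Alternatives were DESeq2 1.42.0, limma voom 3.58.1, ComBat-seq (sva 3.50.0), other normalizations and filters, covariates, the replicate block, a length trend removed (lowess span 0.3), an adjusted p of 0.05 and left-out embryos. Control- and SER-generated embryos share replicate numbers 1 to 15. Their deviations correlated over 0.1 in 8 of 15 pairs (-0.35 to 0.48), so the numbers were not taken to pair embryos.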

Additional observations from a re-analysis of the deposited data

How the results depend on the processing

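Of the 49 tested members, 0 were called by edgeR with DESeq2's size factors, a stricter filter, library size or detected genes as a covariate, the length trend removed, an adjusted p of 0.05, or any embryo left out. The number called was 2 without the filter, 1 with DESeq2, 2 with limma voom, 1 with estimated clusters in edgeR, 3 with them in DESeq2 and 2 with ComBat-seq. Over all tested genes these numbers were 0 with edgeR as reported and 504, 49, 848, 41, 251 and 173 in the same order. The median log2 fold change was 0.15 with limma voom, -0.01 with the length trend removed or without control replicates 1 and 3, and -0.50 to -0.37 under the other settings with all embryos and no block. Leaving out single embryos gave -0.55 to -0.21. The cause of these differences was not tested. Embryos of the same replicate number were not shown to be paired (4 of 15 correlated best with their own number). With the replicate block 0 members were called and the median was -0.25, and -0.05 with the length trend removed as well.

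Estimates whose sign differed, where at least 1 of both exceeded its standard error, were these among the 49 tested members. Under limma voom they were Atp5g1 (0.42), Atp5j2 (0.71), Atp5k (0.56), Atp5md (0.63), Atp5mpl (0.22), Atp5o (0.42), Atp5pb (0.21), Cox17 (0.91), Cox4i1 (0.30), Cox5a (0.36), Cox5b (0.43), Cox6a1 (0.15), Cox6b1 (0.39), Cox7a2 (0.12), Cox7b (0.56), Uqcrq (0.57) and Sdhaf2 (-0.75). With the length trend removed they were Atp5md (0.25), Atp5mpl (0.055), Cox5a (0.13), Cox6b1 (0.033), Uqcrh (0.70) and Uqcrq (0.081), and with the block added Atp5j2 (0.065), Atp5md (0.35), Atp5mpl (0.070), Cox4i1 (0.029), Cox5a (0.092), Cox6b1 (0.19), Uqcrh (0.027) and Uqcrq (0.051). Without control replicates 1 and 3 they were Atp5j2 (0.20), Atp5md (0.30), Atp5mpl (0.21), Atp5pb (0.13), Cox17 (0.028), Cox5a (0.21) and Uqcrh (0.17), and without control replicate 4 and SER replicate 15 too, 0.32, 0.29, 0.20, 0.17, 0.010, 0.26 and 0.0036. Sdhaf2 was at -0.47 and -0.50 with estimated clusters in edgeR and DESeq2, -0.47 with ComBat-seq and from -0.80 (without SER replicate 15) to 0.27 (without control replicate 4) with single embryos left out. Leaving out 1 embryo turned the sign of 11 of the 49 estimates, Atp5h, Atpaf2, Sdha, Sdhaf2, Sdhb, Sdhc, Sdhd, Uqcc3, Uqcr10, Uqcrc1 and Uqcrfs1.

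Cox6b1 minus Cox6b2 was -0.41 without division by length and -0.46 without control replicates 1 and 3, past an adjusted p of 0.1 but not 0.05. It was -0.27 with the shortest coding transcript and 0.23 with the union of exons, past neither. Atpaf1 minus Atpaf2 was 0.087 with the shortest transcript, past neither. It was -0.64 without division by length (permutation test, adjusted p = 0.0916), past 0.1 only, and -1.04 with the union, past both. The other 6 pairs kept sign and call. Depth limits the 19 members that failed the filter, for which no fold change could be given.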
